A study of Mus musculus with 18 samples.

Results

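The genes described here are the NFAT transcription factors and the phosphatase calcineurin that controls them, 10 of the 37236 genes measured in CD3+ tumor-infiltrating lymphocytes (TILs). They were chosen by symbol, with earlier results of these data known. They are 4 NFAT factors (Nfatc1, Nfatc2, Nfatc3 and Nfat5), the NFAT cofactor Nfatc2ip, the calcineurin catalytic subunits Ppp3ca, Ppp3cb and Ppp3cc, the regulatory subunit Ppp3r1, and the calcineurin inhibitor Rcan1. All 10 were in the table and all 10 passed the filter on low values (an average of 10 or more normalized counts over the 18 samples), as did 11992 genes in all.

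The TILs came from C57BL/6 mice that were either wild-type (Nr2f6+/+) or carried a germline deletion of Nr2f6 in all tissues (Nr2f6-/-), so an effect of genotype is not limited to T cells. Each mouse had received 500000 B16-OVA cells, a mouse melanoma line that expresses ovalbumin as a model antigen, under the skin. From d3 the mice were injected i.p., repeatedly each week, with 0.5 mg of αPD-L1 (clone 10F.9G2) or of IgG2b (LTF-2), its control antibody, and tumors were taken at d14. The 4 groups were Nr2f6+/+ with IgG2b (n = 3), Nr2f6-/- with IgG2b (n = 3), Nr2f6+/+ with αPD-L1 (n = 6) and Nr2f6-/- with αPD-L1 (n = 6). The study's methods describe tumor recipients as young adult mice, with no age stated for each sample. Cells selected with CD4 and CD8 beads were combined before the CD3 sort. CD4+ and CD8+ cells are therefore measured together, and fewer cells of a type and less RNA per cell cannot be told apart. The labels do not say whether each sample was a separate mouse, and p-values measure only the spread between these samples.

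NFATc1, NFATc2 and NFATc3 rest in the cytoplasm as phosphoproteins. When the T cell receptor opens calcium channels, calcium and calmodulin activate calcineurin, which removes the phosphates and lets NFAT enter the nucleus, where it works with AP-1 at cytokine genes and, with little AP-1, at genes of anergy and exhaustion. NFAT5 responds to osmotic stress and lacks the calcineurin docking that the other members have, and NR2F6 is an orphan nuclear receptor known to oppose NFAT/AP-1 at cytokine genes. These data are RNA levels and do not measure phosphorylation or nuclear entry.

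The libraries held between 12473391 and 18609482 reads on genes. Each value is a normalized count, the reads of a gene divided by the size factor of its sample, and the 10 genes had between 18 and 6695 reads per sample, well above the floor of 3 reads (2.46 to 3.64 normalized counts). The library numbers form a first set, which holds replicates 1 to 3 of every group, and a second set, which holds replicates 4 to 6 of both αPD-L1 groups only. Nr2f6 itself had 0 reads in all 9 Nr2f6-/- samples, against 20.2, 101 and 35.7 normalized counts in Nr2f6+/+ IgG2b and between 26.1 and 201 in Nr2f6+/+ αPD-L1. Against the floor of 3 reads per library it was at least 30.6-fold lower with αPD-L1 (exact permutation test, two-sided, p = 0.0021645) and at least 17.8-fold lower with IgG2b (p = 0.1), each the smallest p that the exact permutation test can give at these group sizes.

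The sort was checked with lists of cell type markers. Summed over 7 of 7 T cell markers, levels lay between 32263 and 37822 normalized counts in Nr2f6+/+ IgG2b and 38175 and 42142 in Nr2f6-/- IgG2b. With αPD-L1 they lay between 34817 and 56213 in Nr2f6+/+ and 44678 and 52472 in Nr2f6-/-. The 2 CD8 T cell markers summed to 18935 to 21884, 22095 to 25416, 12805 to 34822 and 28388 to 40405 in the same order of groups. For both sums the IgG2b groups and Nr2f6-/- αPD-L1 did not overlap one another, while Nr2f6+/+ αPD-L1 overlapped all of them. The B cell list (6 genes) summed to between 0 and 193, with Cd79a at 0 in every sample. The 10 macrophage and monocyte markers, headed by Lyz2, summed to between 12883 and 16480 in Nr2f6+/+ IgG2b, 7684 and 10798 in Nr2f6-/- IgG2b, 1393 and 5720 in Nr2f6+/+ αPD-L1, and 849 and 2295 in Nr2f6-/- αPD-L1. The platelet list (4 genes) summed to at least 2300 in Nr2f6+/+ IgG2b and to at most 703 elsewhere, most of it Pf4 in Nr2f6+/+ IgG2b, with Gp9 at 0 in every sample. The 6 melanocyte markers, a sign of tumor cells, were lower in Nr2f6-/- than in Nr2f6+/+ by median, at 1259 against 3333 with αPD-L1 (ranges 736 to 4353 and 2013 to 7120) and 1251 against 2843 with IgG2b (ranges 1148 to 2336 and 2463 to 4557). The median log2 ratio of Cd8a to Cd4 was 0.92 in Nr2f6+/+ IgG2b, 1.20 in Nr2f6-/- IgG2b, 1.19 in Nr2f6+/+ αPD-L1 and 1.74 in Nr2f6-/- αPD-L1, with ranges that overlapped in all groups. Macrophage signal thus moved with treatment and, with IgG2b, also with genotype. Platelet signal likewise separated the genotypes with IgG2b. Melanocyte signal moved with genotype by median, with ranges that overlapped with αPD-L1. The part of T cell content and of these other cells in the results was not tested.

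**Figure D1:**
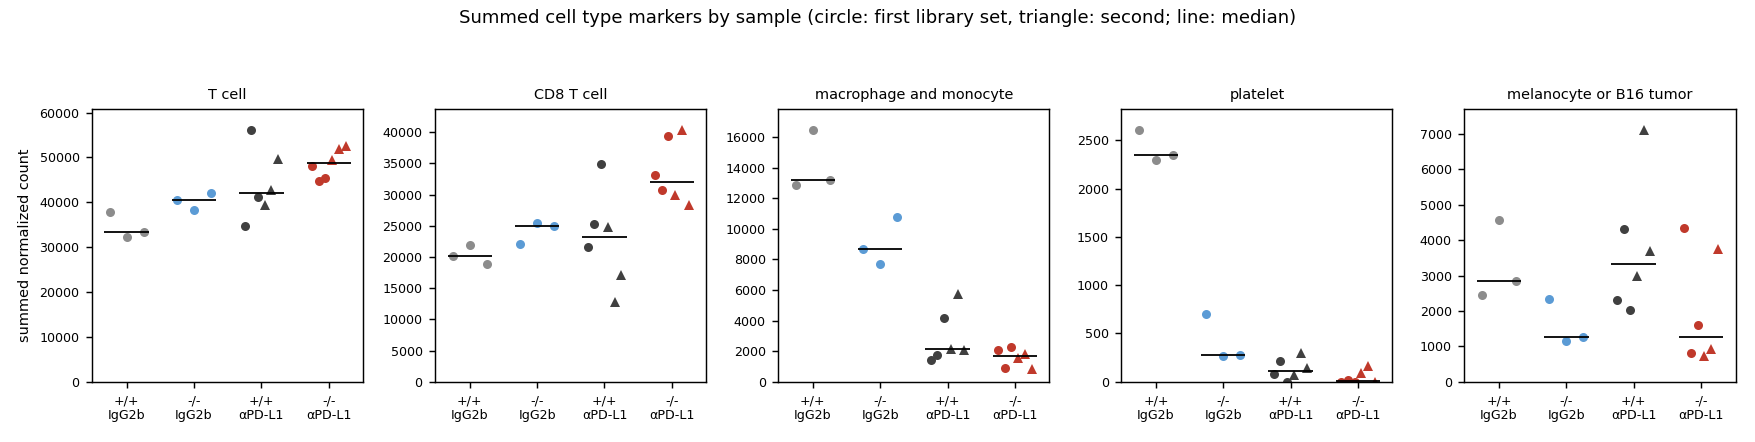
Summed normalized counts of 5 marker lists (vertical axes, linear from 0) in each sample of the 4 groups, with circles for the first library set, triangles for the second and a line at the group median. The macrophage and monocyte sums of the αPD-L1 samples (849 to 5720) all lie below those of the IgG2b samples (7684 to 16480).

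The question put first was whether NFAT and calcineurin genes differed between genotypes when PD-L1 was blocked. Nfatc1, the NFAT gene that T cells induce on stimulation, was higher in every Nr2f6-/- αPD-L1 sample than in any Nr2f6+/+ αPD-L1 sample, by 1.71-fold, but it missed the adjusted threshold. Ppp3cc, the catalytic γ subunit, differed most in size (2.54-fold), and Nfatc2 (1.78-fold) and Ppp3ca (1.61-fold) were also higher on average, with overlapping samples. None of the 10 passed the adjusted threshold of 0.05 in limma, nor in edgeR, whereas DESeq2 called 2 of them (Nfatc1 and Ppp3cc). Over all genes tested 0.175% passed in limma (21 genes), 0.183% in edgeR (22 genes) and 1.81% in DESeq2 (230 genes).

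Nfatc1 read 5320, 5085, 4432, 3866, 6023 and 3864 normalized counts in replicates 1 to 6 of Nr2f6-/- αPD-L1. The Nr2f6+/+ αPD-L1 samples read 3522, 2737, 3639, 2260, 2025 and 2655. The lowest sample of the deficient group thus lay above the highest of the wild-type group, and the group means were 4765 ± 863 and 2807 ± 655 (SD, n = 6). On the log2 scale the difference was 0.78 (SE 0.18, 95% interval 0.42 to 1.14), with an adjusted p of 0.0618 in limma, rank 24 of 11992 genes. Of all genes tested 0.592% had groups that did not overlap here, and 1 of the 10 members, Nfatc1, was among them.

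The Nfatc1 difference was present in each library set. In the first set the 3 Nr2f6-/- samples lay between 4432 and 5320 and the 3 Nr2f6+/+ samples between 2737 and 3639, a log2 difference of 0.59 (adjusted p = 0.534 in limma within the set). In the second set the ranges were 3864 to 6023 and 2025 to 2655, a log2 difference of 0.96 (adjusted p = 0.568). With the library set as a covariate the difference of 0.78 passed the threshold (adjusted p = 0.0274), and DESeq2 on the recovered reads gave 0.76 (adjusted p = 0.00204). The call is therefore close to the threshold, and it was gained on leaving out replicate 1 or 3 of Nr2f6+/+ αPD-L1 or replicate 4 or 6 of Nr2f6-/- αPD-L1 (adjusted p from 0.0329 to 0.050). Over the 31 alternatives the adjusted p ranged from 0.00204 to 0.568, and the difference stayed above 0 in every alternative.

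Nfatc2, the NFAT factor that resting T cells already hold, read 1082, 1074, 419, 791, 451 and 740 normalized counts in Nr2f6-/- αPD-L1. The Nr2f6+/+ αPD-L1 samples read 571, 179, 490, 349, 644 and 358. The 2 lowest deficient samples lay inside the wild-type range, and the log2 difference was 0.83 (SE 0.33, adjusted p = 0.388). The sample at 179, replicate 2 of Nr2f6+/+ αPD-L1, also had the fewest genes detected of the 18 libraries (11107), and without it the difference was 0.60.

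Nfatc3, which T cells and thymocytes hold in quantity, ranged from 2031 to 2648 normalized counts around a median of 2298 in Nr2f6-/- αPD-L1. The Nr2f6+/+ αPD-L1 samples ranged from 1573 to 2310, around 1763. Its log2 difference of 0.35 (95% interval -0.04 to 0.75, adjusted p = 0.577) was nearly equal in the first (0.32) and the second (0.39) library set. Nfat5 gave 0.00 (interval -0.58 to 0.58) and Nfatc2ip, a protein that binds NFATc2 and promotes cytokine transcription, 0.10 (interval -0.80 to 1.0). The intervals of these last 2 genes leave room for a difference in either direction, and neither gene has a stated direction here. Nfatc2ip pointed opposite ways in the library sets, -0.76 in the first and 0.96 in the second.

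Among the calcineurin genes, Ppp3cc read 499, 636, 504, 226, 451 and 306 normalized counts in Nr2f6-/- αPD-L1. The Nr2f6+/+ αPD-L1 samples read 197, 80.5, 88.9, 180, 318 and 222. The groups did not overlap in the first set but did in the second, and the log2 difference over both was 1.35 (SE 0.43, interval 0.46 to 2.23, adjusted p = 0.257). It was 2.26 in the first set and 0.43 in the second, so the first set carried most of it, although whether the sets differ was not tested. DESeq2 called Ppp3cc at 1.27 (adjusted p = 0.0414), and the adjusted p over the 31 alternatives reached 0.844.

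Ppp3ca, the α subunit, read 1602, 1746, 2783, 2434, 2236 and 1322 normalized counts in Nr2f6-/- αPD-L1. The Nr2f6+/+ αPD-L1 samples read 1084, 472, 1503, 1405, 1496 and 1959. The log2 difference was 0.69 (SE 0.26, adjusted p = 0.361), 1.11 in the first set and 0.27 in the second. Replicate 2 of Nr2f6+/+ αPD-L1 was again the lowest sample, and the value without it was 0.42, 1.6 times smaller on the log2 scale.

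Ppp3cb, the β subunit, and Ppp3r1, the calcium-binding regulatory subunit that every catalytic subunit needs, gave log2 differences of 0.15 (interval -0.26 to 0.55) and -0.03 (interval -0.48 to 0.42). In Nr2f6-/- αPD-L1 both were high in the first set and lower in the second, with Ppp3cb at 3628, 3530 and 3578 against 1837, 1929 and 2657. Rcan1, which binds and inhibits calcineurin, gave 0.60 with a wide interval (-0.87 to 2.07), and 0.047 without replicate 3 of Nr2f6+/+ αPD-L1. Its samples ran from 54.9 to 471 normalized counts in Nr2f6-/- αPD-L1 and from 18.8 to 391.6 in Nr2f6+/+ αPD-L1, so the groups overlapped almost fully.

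Over the 10 genes, 4 had an unadjusted p under 0.05 (Nfatc1, Nfatc2, Ppp3ca and Ppp3cc), against 9.73% of all genes tested. Of the log2 differences 9 were above 0 and 1 below, against 49.6% above 0 over all tested genes. Their median was 0.47 beside -0.0049 over all tested genes. The 9 include Nfat5 (0.00) and Nfatc2ip (0.10), which changed sign in 10 and 5 of the 31 alternatives. Ppp3cb and Rcan1 did so in 1 each, and Ppp3r1, the gene below 0, in 7. Of the 4 genes with an unadjusted p under 0.05, Nfatc1, Nfatc2 and Ppp3cc were picked for display by the study from this experiment, so their direction is not independent evidence.

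**Figure D2:**
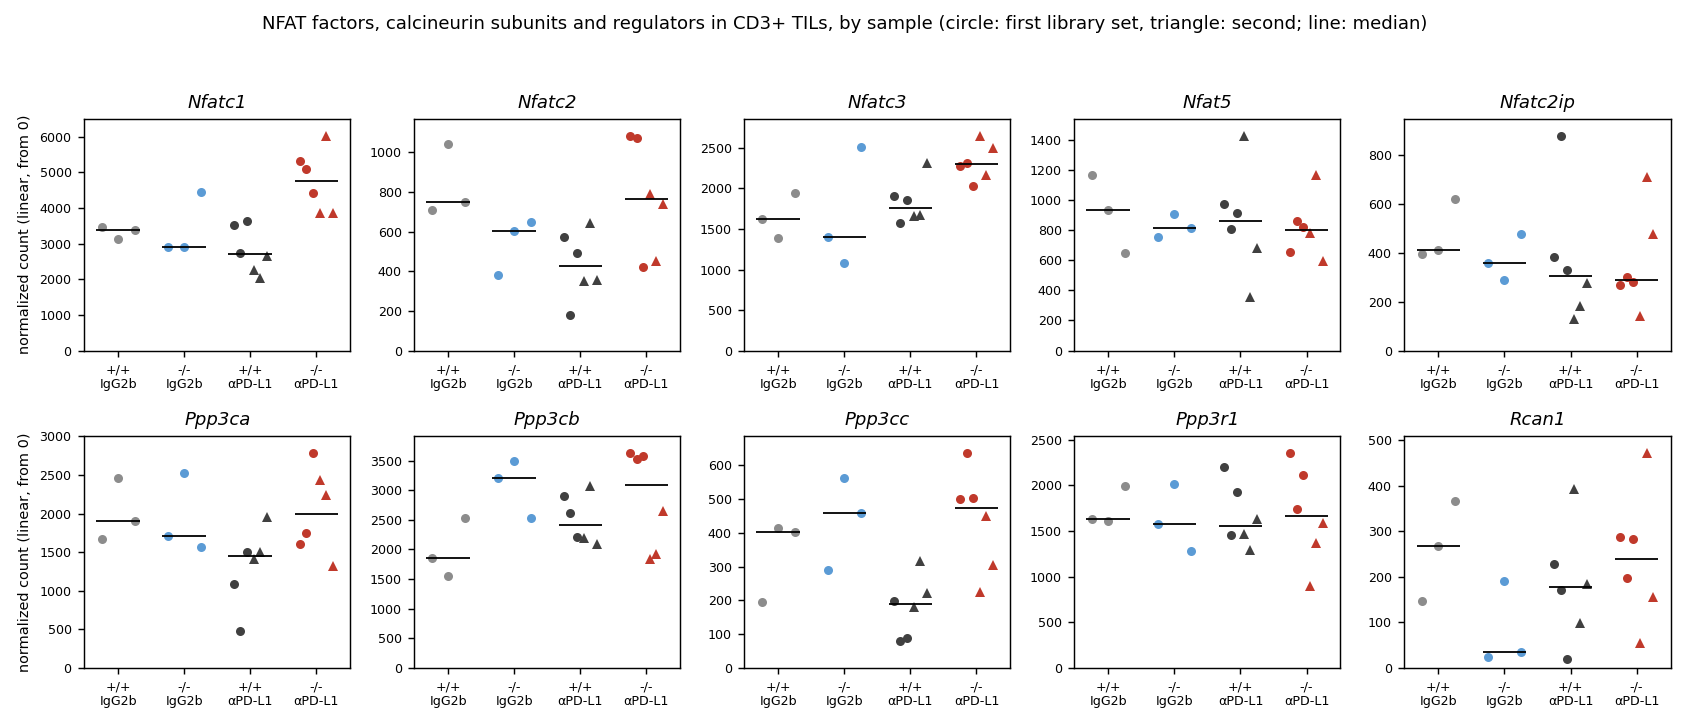
Normalized counts (vertical axes, linear from 0) of the 10 genes in all 18 samples by group, with circles for the first library set, triangles for the second and a line at the group median. Nfatc1 shows Nr2f6-/- αPD-L1 samples from 3864 to 6023, above all Nr2f6+/+ αPD-L1 samples, while these 2 groups overlap for the other 9 genes.

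**Figure D3:**
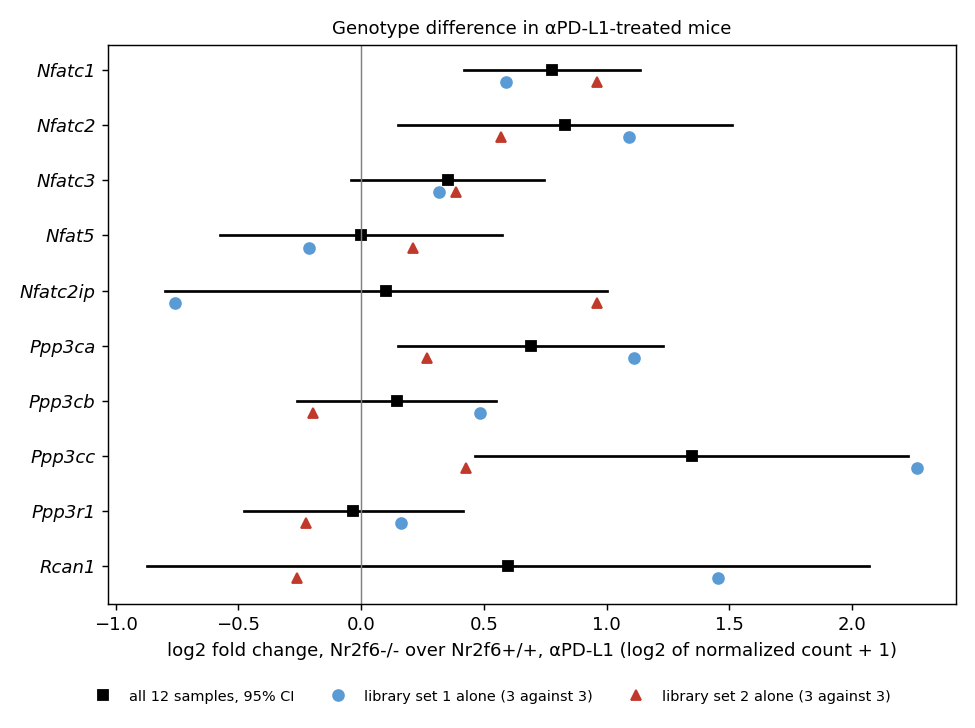
Log2 fold change of Nr2f6-/- over Nr2f6+/+ with αPD-L1 for each gene (horizontal axis), as squares with 95% intervals from limma over all samples, circles for the first library set alone and triangles for the second alone. The intervals of Nfatc1, Nfatc2, Ppp3ca and Ppp3cc lie above 0 before adjustment, and the library sets fall far apart for Ppp3cc (2.26 and 0.43).

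With IgG2b, where each genotype had 3 samples, the pattern was not the same in these values. Nfatc1 read 2911, 2904 and 4439 in Nr2f6-/- and 3454, 3119 and 3381 in Nr2f6+/+, a log2 difference of 0.01 (interval -0.49 to 0.52). Nfatc2 was lower in every Nr2f6-/- sample (380, 604 and 646 against 709, 1043 and 750), with a log2 difference of -0.63 (SE 0.47, adjusted p = 0.989) that was -0.39 without replicate 1 of Nr2f6-/-. Groups without overlap are common at 3 against 3 (14.2% of all genes here), and 1 of the 10 members, Nfatc2, was among them.

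Ppp3cb and Rcan1 were the 2 members with an unadjusted p under 0.05 between genotypes with IgG2b, against 5.35% of all genes. Ppp3cb read 3215, 3494 and 2524 in Nr2f6-/- and 1854, 1558 and 2526 in Nr2f6+/+, a log2 difference of 0.65 (SE 0.28, adjusted p = 0.892). Rcan1 read 23.8, 190 and 34.3 in Nr2f6-/- and 146, 268 and 366 in Nr2f6+/+, a log2 difference of -2.15 (SE 1.02, adjusted p = 0.920). The highest Nr2f6-/- sample, replicate 2, lay within the wild-type range, and without it the difference was -3.04. No member passed the adjusted threshold, and 0% of all genes did in limma (0 of 11992, with 641 at an unadjusted p under 0.05). edgeR likewise called 0 genes and DESeq2 called 92 (0.516% of those it tested), none of them a member.

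Whether the genotype difference itself depended on treatment was tested as an interaction. It was 0.76 for Nfatc1 (SE 0.30), 1.46 for Nfatc2 (SE 0.58) and 2.74 for Rcan1 (SE 1.25), all with an adjusted p of 0.974 in limma. These 3 were the members with an unadjusted p under 0.05, against 4.97% of all genes. No member and 0% of all genes passed the adjusted threshold (596 genes had an unadjusted p under 0.05, edgeR called 0 and DESeq2 89, or 0.629%, no member among them). The different behaviour of Nfatc1 under IgG2b and under αPD-L1 is thus not established across genes.

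The effect of αPD-L1 was compared within each genotype. These comparisons share samples with those above, and all second-set libraries are αPD-L1, so the values within the first set are given too. In Nr2f6+/+, Nfatc2 was lower in all 6 αPD-L1 samples (179 to 644) than in the 3 IgG2b samples (709 to 1043), a log2 difference of -1.04 (SE 0.41, adjusted p = 0.553) over all samples. Ppp3ca was also lower, by -0.71 (SE 0.32, adjusted p = 0.638). Within the first set the 2 values were -1.15 and -1.11. Without replicate 2 of Nr2f6+/+ αPD-L1 they were -0.81 for Nfatc2 and -0.44 for Ppp3ca. These 2 genes had an unadjusted p under 0.05, against 7.24% of all genes, and 1 of the 10, Nfatc2, did not overlap, against 4.54%. No member passed the adjusted threshold, and 0.242% of all genes did (29 genes).

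In Nr2f6-/-, the members with an unadjusted p under 0.05 were Nfatc1, Nfatc3 and Rcan1, 3 of 10 against 9.7% of all genes. Nfatc1 was between 3864 and 6023 with αPD-L1 and between 2904 and 4439 with IgG2b, a log2 difference of 0.49 (SE 0.21, adjusted p = 0.444). Nfatc3 was between 2031 and 2648 with αPD-L1 and read 1396, 1086 and 2512 with IgG2b (0.57, SE 0.24, adjusted p = 0.404). Rcan1 differed by 1.87 (SE 0.88, adjusted p = 0.496), with a 95% interval from 0.07 to 3.67, and was 1.29 without replicate 1 of Nr2f6-/- IgG2b. Within the first set the values were 0.56, 0.50 and 2.19 for the 3 genes. The Nfatc3 value rested on the IgG2b samples, since it was 0.91 without replicate 3 and 0.31 without replicate 2. No member passed the threshold or had groups without overlap, against 0.325% and 5.12% of all genes.

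The last 2 comparisons set the combination against wild-type IgG2b, and the mono-interventions against each other. Nfatc1 and Nfatc3 were higher in all 6 Nr2f6-/- αPD-L1 samples than in all 3 Nr2f6+/+ IgG2b samples, each by 0.50 on the log2 scale (SE 0.21, adjusted p = 0.427, and SE 0.24, adjusted p = 0.523). Ppp3cb was also higher, by 0.50 (SE 0.24, adjusted p = 0.538), with overlap. Within the first set these values were 0.57, 0.43 and 0.88. These 3 had an unadjusted p under 0.05, against 9.04% of all genes, the 2 without overlap stand against 6.17%, and no member passed the threshold, which 0.617% of all genes did. Between Nr2f6-/- IgG2b and Nr2f6+/+ αPD-L1, Ppp3cc was higher in the former (290, 563 and 458 against 80.5 to 318), by 1.37 (SE 0.53, adjusted p = 0.295). It was the only member with an unadjusted p under 0.05, against 11.2% of all genes. No member passed the adjusted threshold or had groups without overlap, against 0.459% and 5.36%.

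The order of the group medians differed from gene to gene. For Nfatc1 it ran from Nr2f6+/+ αPD-L1 (2696) through Nr2f6-/- IgG2b (2911) and Nr2f6+/+ IgG2b (3381) to Nr2f6-/- αPD-L1 (4758), and the lower 3 groups overlapped with each other. For Ppp3cc the Nr2f6+/+ αPD-L1 median (189) was below those of Nr2f6+/+ IgG2b (404), Nr2f6-/- IgG2b (458) and Nr2f6-/- αPD-L1 (475), and those 3 overlapped widely. Ppp3r1 had medians between 1550 and 1664 in all 4 groups, the narrowest spread of medians among the 10 genes.

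The members differed in how much they varied between samples. From the lowest to the highest of the 18 samples Rcan1 spanned 25-fold (18.8 to 471 normalized counts), Ppp3cc 7.90-fold, Nfatc2ip 6.85-fold and Nfatc2 6.03-fold, while Ppp3cb spanned 2.33-fold. Within groups the SD of log2 values was 1.27 for Rcan1 and 0.29 for both Nfatc1 and Nfatc3. Genes of like abundance (means within 1.5-fold) had median SDs of 1.16 for Rcan1, 0.31 for Nfatc1 and 0.38 for Nfatc3. Ppp3ca had an SD of 0.52, above that of 86.4% of genes of like abundance. That SD includes replicate 2 of Nr2f6+/+ αPD-L1, at 472 normalized counts where the rest of its group read 1084 to 1959. The SD without this library was not computed.

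For Rcan1 the RefSeq promoter windows (GRCm38.p6) held 2 start regions, and in GENCODE the gene extends upstream of both, to chr16:92470867. They are shown because the gene is both an inhibitor of calcineurin and a known target of NFAT, so the letters of its promoters bear on how it is read as a feedback gene. Each line runs 5′ to 3′ on the minus strand of chromosome 16, from 250 bases before the start to 50 after it. Capitals mark matches on either strand to GGAAA, the NFAT core (TTTCC on the other strand), and to TGACTCA, the AP-1 element (TGAGTCA). The upstream window is chr16:92466120-92466419 and the internal window chr16:92400029-92400328.
Rcan1 upstream start: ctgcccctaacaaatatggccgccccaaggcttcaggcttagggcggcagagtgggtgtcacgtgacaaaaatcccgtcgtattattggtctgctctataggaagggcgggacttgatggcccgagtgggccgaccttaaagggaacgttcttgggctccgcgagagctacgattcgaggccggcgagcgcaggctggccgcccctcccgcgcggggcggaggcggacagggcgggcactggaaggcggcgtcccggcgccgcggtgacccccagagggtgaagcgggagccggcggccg
Rcan1 internal start: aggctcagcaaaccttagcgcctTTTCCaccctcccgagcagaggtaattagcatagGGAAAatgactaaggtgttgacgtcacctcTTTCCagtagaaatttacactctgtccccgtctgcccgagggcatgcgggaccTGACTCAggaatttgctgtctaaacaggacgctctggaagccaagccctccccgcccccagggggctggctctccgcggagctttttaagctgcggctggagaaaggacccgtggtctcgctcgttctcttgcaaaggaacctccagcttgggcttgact

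The internal Rcan1 window held 3 matches to the NFAT core and 1 to the AP-1 element, and the upstream window held 0 of either. Of all 32851 promoter windows of this length, 61.3% held at least 1 match to the NFAT core, 9.42% at least 3, and 5.20% at least 1 to the AP-1 element. At least 2 NFAT cores together with an AP-1 element were found in 1.46%. The 3′ counting used here gives 1 value per gene, so the Rcan1 counts do not tell transcripts of different starts apart. The nuclear receptor half-site AGGTCA, sought on both strands, was in none of the 10 windows held for 7 of the members, and in 16.3% of all windows. No window was held for Nfatc1, Ppp3ca and Ppp3cc, so nothing is known here of motifs at their starts.

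Further windows are shown for Nfatc2, whose levels were lower with αPD-L1 in wild-type samples, to set the 2 held for it beside those of Rcan1. They lie on the minus strand of chromosome 2 at chr2:168601608-168601907 and chr2:168590316-168590615, with capitals as before.
Nfatc2 upstream start: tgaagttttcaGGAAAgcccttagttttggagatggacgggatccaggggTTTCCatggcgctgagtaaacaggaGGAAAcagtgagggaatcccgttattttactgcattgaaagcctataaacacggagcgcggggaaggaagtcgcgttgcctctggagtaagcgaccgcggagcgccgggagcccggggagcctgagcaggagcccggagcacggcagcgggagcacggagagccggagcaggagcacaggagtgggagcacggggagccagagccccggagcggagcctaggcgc
Nfatc2 internal start: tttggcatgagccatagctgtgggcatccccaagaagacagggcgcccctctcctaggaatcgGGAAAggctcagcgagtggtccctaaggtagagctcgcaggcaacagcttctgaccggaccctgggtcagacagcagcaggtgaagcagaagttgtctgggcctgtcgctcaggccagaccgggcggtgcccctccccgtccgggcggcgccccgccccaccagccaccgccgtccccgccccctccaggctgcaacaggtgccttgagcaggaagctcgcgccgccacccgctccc

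The upstream Nfatc2 window held 3 matches to the NFAT core and the internal one 1, with 0 AP-1 elements in both. Ppp3cb had 4 NFAT cores in its window, a number reached by 2.65% of all windows. Nfat5 had 2, Nfatc2ip 1, Nfatc3 1 and 0 in its windows, and Ppp3r1 0. Such short motifs occur by their letters alone, and a match is not a bound site.

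Nfatc3 (chr8:106058840-106130537, plus strand) and Nfat5 (chr8:107293470-107379517, plus strand) lie on the chromosome of Nr2f6, 34.7 and 35.9 Mb from it in GENCODE (GRCm38). Exons of Nfatc3 overlap those of Esrp2 by up to 219 bases on the opposite strand, those of Ppp3cc overlap the antisense gene Gm49417 by up to 91 bases, those of Nfatc2ip overlap Gm45141 on the opposite strand by up to 382 bases, and those of Ppp3r1 overlap Wdr92 on the same strand by up to 185 bases. The strand setting of the counting is not given in the sources used here, so reads in these stretches could belong to either gene.

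The rest of the pathway was read from 6 lists. By single comparison between 0% and 0.617% of all genes passed the adjusted threshold in limma. The share of all genes that passed in any of the 7 comparisons was not counted, so list counts by that rule have no background here. Calcium entry and calmodulin (17 of 17 genes tested) and the kinases and exportin that return NFAT to the cytoplasm (9 of 9) had 0 genes past the adjusted threshold in any of the 7 comparisons. Of the calcium list, Stim1, the calcium sensor of the endoplasmic reticulum, had the smallest p between genotypes with αPD-L1, at -0.85 (SE 0.32, adjusted p = 0.357). It read 663, 400, 369, 962, 711 and 745 normalized counts in Nr2f6-/- αPD-L1 and between 674 and 1772 in Nr2f6+/+ αPD-L1. Orai1, the calcium channel that Stim1 opens, gave -0.41 (SE 0.21, adjusted p = 0.525). Of the kinases, Csnk1d gave -0.38 (SE 0.19, adjusted p = 0.519), and Dyrk1b, with 0 to 136 normalized counts, gave 1.73 (SE 1.23, adjusted p = 0.683).

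Among the other calcineurin inhibitors and anchors, 1 of the 6 genes tested passed in any comparison. Tbc1d10c (carabin), which inhibits calcineurin and Ras, rose with αPD-L1 in Nr2f6-/-, from 2445, 2393 and 1819 normalized counts to 3035, 4343, 8469, 4536, 4832 and 5984. The groups did not overlap, and the log2 difference was 1.17 (SE 0.24, adjusted p = 0.0181 in limma). Within the first library set it was 1.13 (adjusted p = 0.168), and the call was lost on leaving out replicate 1, 2 or 3 of Nr2f6-/- IgG2b. In Nr2f6+/+ it read 2935, 4691 and 3791 with IgG2b and between 2944 and 4597 with αPD-L1. These wild-type values all lay above the Nr2f6-/- IgG2b samples and overlapped those of Nr2f6-/- αPD-L1. In Nr2f6+/+ the same treatment gave 0.07 (SE 0.24), and the difference between the treatment effects was 1.10 (SE 0.34, unadjusted p = 0.0027 and adjusted p = 0.974 in limma). Within Nr2f6-/-, T cell marker sums were also higher with αPD-L1 (44678 to 52472 against 38175 to 42142) and macrophage sums lower. The part of these cells in the Tbc1d10c values was not tested.

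Of the AP-1 and IRF4 partners of NFAT (10 of 11 genes tested), some passed between treatments. In Nr2f6+/+, 2 of the 10 fell with αPD-L1, Fos by 2.69 (SE 0.52, adjusted p = 0.0130) and Fosl2 by 1.58 (SE 0.30, adjusted p = 0.0115) on the log2 scale. Over all genes 0.242% passed in this comparison. Fos read 923, 1411 and 782 normalized counts with IgG2b and between 70.3 and 273 with αPD-L1, without overlap. In Nr2f6-/-, Fosl2 fell by 1.501 (SE 0.30, adjusted p = 0.0146), from 5362, 10094 and 5956 to between 1240 and 4203, while Fos gave -1.29 (adjusted p = 0.385). The median log2 difference of the 10 genes was -1.58 in Nr2f6+/+ and -1.06 in Nr2f6-/-, beside -0.10 and -0.04 over all genes.

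Between Nr2f6-/- IgG2b and Nr2f6+/+ αPD-L1, 3 of the 10 AP-1 genes passed and were higher in the former (0.459% of all genes passed). These were Fosl2 by 2.21 (SE 0.30, adjusted p = 1.56e-04), Junb by 1.94 (SE 0.40, adjusted p = 0.0170) and Jun by 1.55 (SE 0.37, adjusted p = 0.0485). Junb also showed the library sets, since in Nr2f6-/- αPD-L1 it read 16558, 16264 and 13878 in the first set and 7059, 5163 and 3071 in the second. Between genotypes with αPD-L1 no gene of this list passed (Fosl2 0.71, adjusted p = 0.315, and Junb 0.81, adjusted p = 0.390). Each of these transcripts is also expressed by macrophages, whose markers were lower with αPD-L1, and the part of those cells was not tested.

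Of the inhibitory receptors and the anergy or exhaustion factors that NFAT drives (12 of 13 genes tested), 3 passed in at least 1 comparison. Nr4a1, an orphan receptor induced by receptor signals, fell by 1.74 with αPD-L1 in both Nr2f6+/+ (SE 0.32, adjusted p = 0.00927) and Nr2f6-/- (SE 0.32, adjusted p = 0.0104). It was also higher in Nr2f6-/- IgG2b than in Nr2f6+/+ αPD-L1, by 2.27 (SE 0.32, adjusted p = 2.13e-04). Macrophage markers were lower with αPD-L1 in both genotypes, and the part of other cells in the Nr4a1 values was not tested. Tox2, a partner of the exhaustion factor TOX, rose with αPD-L1 in Nr2f6-/- by 2.30 (SE 0.45, adjusted p = 0.0134), from 326, 164 and 326 normalized counts to between 868 and 1730. In Nr2f6+/+ it lay between 141 and 336 with IgG2b and between 220 and 1152 with αPD-L1. The genotype difference with αPD-L1 was 1.51 (SE 0.37, adjusted p = 0.0791). No gene of this list passed the interaction of genotype and treatment, so a Tox2 rise particular to Nr2f6-/- is not established. T cell marker sums were also higher with αPD-L1 in Nr2f6-/- and macrophage sums lower, and their part in the Tox2 values was not tested.

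Against Nr2f6+/+ IgG2b, Nr2f6-/- αPD-L1 was higher in Tox by 1.05 (SE 0.20, adjusted p = 0.00920) and in Tox2 by 2.35 (SE 0.45, adjusted p = 0.00920). Tox read 3220, 3421 and 4516 in Nr2f6+/+ IgG2b and between 7339 and 8146 in all 6 Nr2f6-/- αPD-L1 samples. It lay between 4515 and 6711 in Nr2f6-/- IgG2b and between 3992 and 8832 in Nr2f6+/+ αPD-L1. Of the effector molecules (9 of 12 genes tested), the chemokines Ccl4 (1.52, SE 0.32, adjusted p = 0.0184) and Ccl3 (1.21, SE 0.28, adjusted p = 0.0343) were higher in the same comparison. T cell marker sums were also higher in it (44678 to 52472 against 32263 to 37822) and macrophage sums lower, and their part was not tested. The groups did not overlap for Ccl4 and overlapped for Ccl3. Ccl3 also lay between 7325 and 11978.5 in Nr2f6-/- IgG2b, inside its range in Nr2f6-/- αPD-L1 (5608 to 12957). In Nr2f6+/+ αPD-L1 it lay between 5039 and 13025. Ccl4 lay between 4201 and 7108 in Nr2f6-/- IgG2b. In Nr2f6+/+ αPD-L1 it lay between 3556 and 13427.5, which overlapped Nr2f6-/- αPD-L1 (7469 to 19414). Levels above those of Nr2f6+/+ IgG2b were thus not limited to the combination. No other gene of this list passed in any comparison.

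These calls rest on groups of 3 IgG2b samples. Leaving out 1 library lost the call of every pathway gene named except Fosl2 and Nr4a1 between Nr2f6-/- IgG2b and Nr2f6+/+ αPD-L1, which held in all 30 alternatives. The libraries were Nr2f6+/+ IgG2b replicates 1, 2 and 3 for Fos, 2 and 3 for Fosl2, and 1 and 3 for Nr4a1 in Nr2f6+/+, and Nr2f6-/- IgG2b replicates 2 and 3 for Fosl2 and Tox2 and 1 and 2 for Nr4a1 in Nr2f6-/-. For the combination they were Nr2f6+/+ IgG2b replicate 1 for Tox2, 1 and 2 for Tox and Ccl4, and 2 and 3 for Ccl3, which was also lost without any of replicates 1 to 5 of Nr2f6-/- αPD-L1. Junb was lost without any Nr2f6-/- IgG2b library or Nr2f6+/+ αPD-L1 replicate 2, and Jun was lost on leaving out any of 15 libraries. Every direction held in the first library set alone, where the log2 values were -2.84 for Fos, -1.42 and -1.31 for Fosl2, -1.62 and -1.08 for Nr4a1, and 2.44 for Tox2 in the treatment comparisons. Of the 15 calls, 8 did not pass the adjusted threshold in that set alone, with fewer αPD-L1 samples (adjusted p from 0.0667 to 0.168).

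**Figure D4:**
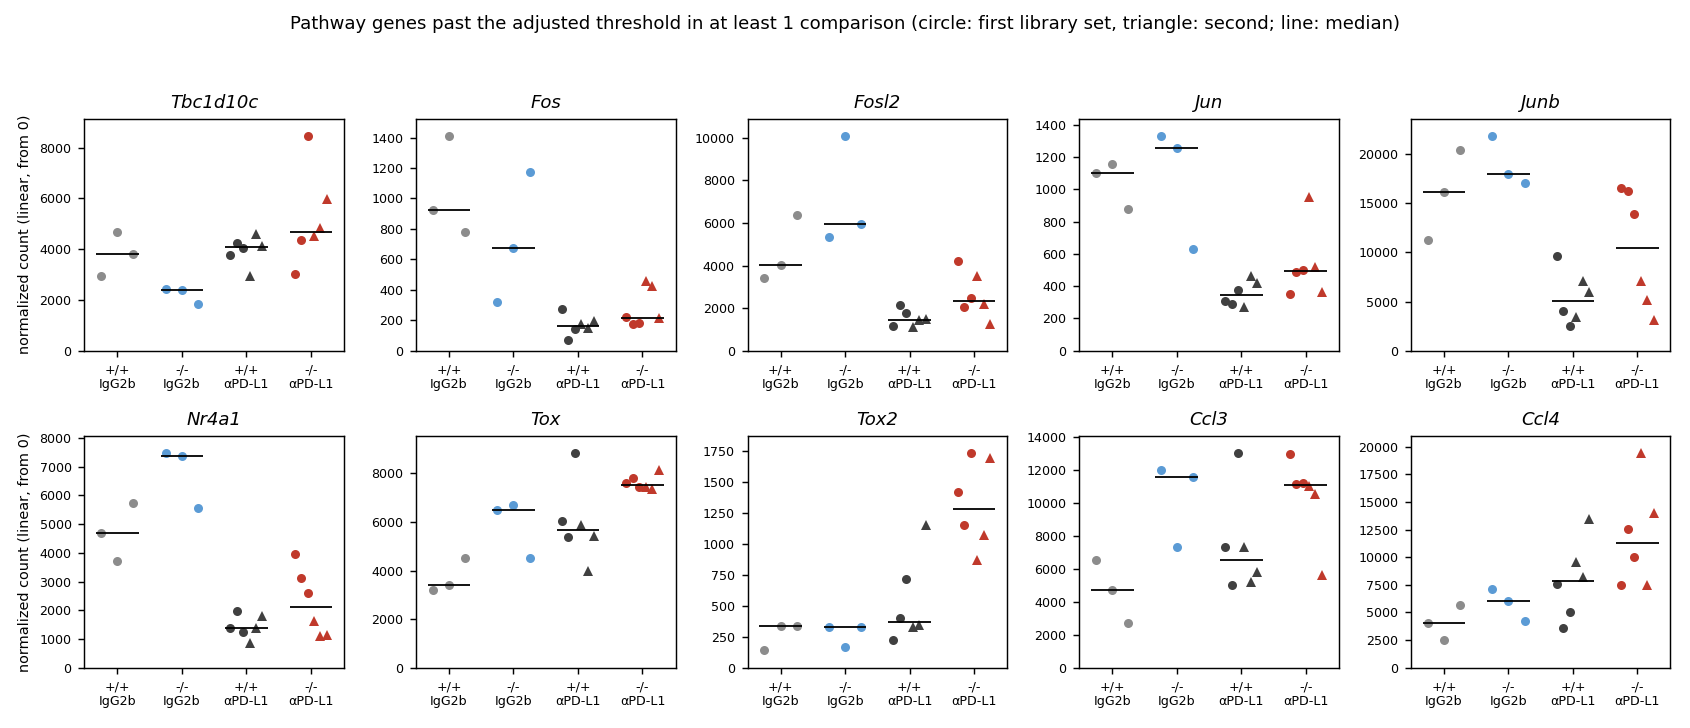
Normalized counts (vertical axes, linear from 0) of the 10 pathway genes that passed the adjusted threshold in at least 1 comparison, in all 18 samples by group, with circles for the first library set, triangles for the second and a line at the group median. Within each genotype all Nr4a1 and Fosl2 values with αPD-L1 lie below those with IgG2b, and Tox2 lies between 868 and 1730 in Nr2f6-/- αPD-L1 against 164 to 326 in Nr2f6-/- IgG2b.

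Genes with a pattern close to that of a member were sought by the correlation of log2(normalized count + 1) over the 18 samples, a description in which the samples share groups, library sets and depth. The genes named are the highest picks from all genes tested. The r that such a pick gives among unrelated genes was not computed, so these values do not establish a link. The 2 closest to Nfatc1 were Itpkb (Pearson r = 0.853), a kinase of the second messenger IP3, and Arhgdib (0.827). Those of Nfatc2 were Zc3h18 (0.833) and Ppard (0.795), those of Nfatc3 Zfp513 (0.780) and Scrn3 (0.756), those of Nfat5 Pole4 (0.804) and Iqgap3 (0.792), and those of Nfatc2ip Vps13a (0.796) and Micall1 (0.772). For the calcineurin genes they were Trip11 (0.855) for Ppp3ca, Ywhah (0.788) and Gas2l3 (0.787) for Ppp3cb, Sep15 (0.818) and Ldb1 (0.817) for Ppp3cc, and Polr3gl (0.823) and Ly75 (0.787) for Ppp3r1. Rcan1 was closest to Tnnt1 (0.827) and Tmub2 (0.767). Within the 10 genes, the closest pair was Ppp3ca and Ppp3cc (r = 0.659), followed by Nfatc2 with Ppp3cc (0.608) and Nfatc1 with Nfatc3 (0.568). On deviations from the group means the order differed, with Ppp3cb and Ppp3r1 closest (r = 0.704) and Ppp3ca with Ppp3cc at 0.456.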

How the data were processed

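RNA of CD3+ TILs was made into QuantSeq 3′ libraries and sequenced on an Ion Torrent instrument. Per the labels and the study's methods, the authors trimmed reads with Cutadapt and Trimmomatic, dropped those under 22 nucleotides, mapped them to mm10 (STAR, followed by Bowtie2), retained 1 primary alignment per multimapping read, counted with HTSeq and used DESeq2. Versions, annotation and strand setting are not given in the sources used here. The deposited signal is the read count per gene divided by 1 size factor per sample (0.823 to 1.22). Whole reads were recovered for 100% of the values (tolerance 0.001), and the floors cover counting error only, while the 95% intervals come from the spread between samples.

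Here log2(normalized count + 1) of the 11992 genes averaging 10 or more was fitted with limma 3.58.1 (R 4.3.3, eBayes with trend) as 4 group means over 18 samples, with 7 contrasts, two-sided, Benjamini-Hochberg adjusted over all genes, threshold 0.05. Fold changes of low genes are understated on this scale. The script was tested on simulated data. edgeR 4.0.16 and DESeq2 1.42.0 on the recovered reads, pseudocounts of 0.5 and 10, an average of 50 or more or no filter, quantile and TMM scaling, the compared groups alone, the library set as a covariate, each set alone, a replicate block and leaving out each library were the alternatives. The genes and lists were chosen with earlier results of these data known. Named were the 10 genes, Nr2f6, list genes past the threshold in any comparison (otherwise the 2 with the smallest p between genotypes with αPD-L1) and the 2 genes closest to each member, of which 1 is not reported here. Outside the genotype comparison with αPD-L1, fold changes are given for members with an unadjusted p under 0.05 or groups without overlap, and for Nfatc1 between genotypes with IgG2b. Promoter windows are from RefSeq (GRCm38.p6) and gene positions from GENCODE.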

Additional observations from a re-analysis of the deposited data

Results flagged for a closer look

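Of 21 sets of 6 αPD-L1 samples (10 genes and, where not all at 0, Nr2f6), 1 held a sample far from the rest by Dixon's gap ratio, where chance gives about 5%. Nfatc2ip read 877 normalized counts in replicate 2 of Nr2f6+/+ αPD-L1, and the other 5 samples lay between 128 and 381. The gap was 0.662 of the range, above the critical 0.625. Without this sample the log2 difference between genotypes with αPD-L1 was 0.41 in place of 0.10. The same library was the lowest of its group for 4 of the 10 genes, among them Nfatc2, Ppp3ca and Ppp3cc, and its part in those values was not tested beyond leaving it out.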

How the results depend on the processing

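Of 210 recounts of members called, 203 gave the same count. The other 7 concern the genotype comparison with αPD-L1, where 0 members were called. The count was 1 with a pseudocount of 10 and 1 with the library set as a covariate (Nfatc1), 2 with DESeq2 on recovered reads, and between 0 and 1 on leaving out single libraries. Over all genes this comparison gave 21 calls, 22 with edgeR, 230 with DESeq2, 9 without a filter, 4 in a fit of the compared groups alone, 34 in the first set and 0 in the second, and the cause was not tested.

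Of the 26 member differences reported by their size, taken over 787 alternative values, 752 kept direction and side of the threshold, 8 passed it and 27 changed sign, in 6 differences, all uncalled. With IgG2b, the Nfatc1 genotype difference gave -0.032 with quantile normalization and -0.19 to 0.12 on leaving out libraries. The other 5 concern the genotypes with αPD-L1. Nfat5 gave -0.0012 with a pseudocount of 10, -0.0037 with quantile normalization, -0.21 in the first set, -0.078 with edgeR, -0.081 with DESeq2, and -0.23 to 0.17 on leaving out libraries. Ppp3r1 gave 0.16 in the first set, 0.016 with edgeR, 0.012 with DESeq2, and -0.14 to 0.14 on leaving out libraries. Nfatc2ip gave -0.76 in the first set and -0.14 to 0.41 on leaving out libraries. In the second set Ppp3cb gave -0.19 and Rcan1 -0.26. Over all 70 member differences, reported or not, 108 of 2100 values changed sign, in 30 differences, and 0 of those values were called. Of 450 values of the called pathway genes, 360 kept the call, 90 lost it and 0 changed sign.

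Replicate numbers recur in all groups but mark no shared animal, and same-numbered samples did not deviate together (21 pairs, correlations from -0.029 to 0.037). With the replicate block 0 members were called in any comparison, and 31 genes in all between genotypes with αPD-L1. The fewest reads behind any member value were the 18 of Rcan1 in replicate 3 of Nr2f6+/+ αPD-L1.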
